A study of Bos taurus with 9 samples.

Results

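The span described here runs from 25000001 to 32000000 of cattle chromosome 23, in the coordinates of the assembly UMD3.1.1. It is the stretch assigned to the main bovine major histocompatibility complex (MHC) and histone gene clusters. That assignment was not checked against gene positions here, nor was the rest of the chromosome checked for other MHC genes. Members of the span are all peaks whose midpoint lies in it, in 8 chromatin immunoprecipitation sequencing (ChIP-seq) peak lists. They were read in 70 windows of 100 kb. The span held 2296 of the 673926 peaks of all lists, and the rest of chromosome 23 held 12981. The rule used positions alone and no measured value, but the span itself was picked with earlier results of these data known.

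The lists came from MDBK cells, an established epithelial line from bovine kidney, grown as untreated control or with 5 mM butyrate for 24 h. Butyrate is a short-chain fatty acid produced by microbes of the rumen, and it inhibits histone deacetylases. Each condition was profiled with 4 antibodies, against H3K9ac and H3K27ac (acetyl marks of active promoters and enhancers), RNA polymerase II (Pol II, the enzyme that transcribes protein-coding genes) and H3K9me3 (a mark of silenced chromatin). Every one of the 8 groups had 1 library, so that no difference had a replicate check and no test between conditions was made. All control libraries shared sequencing lane 4 and all butyrate libraries lane 5, so lane and treatment cannot be told apart. Intervals given here cover counting error only, and neighbouring peaks are not independent of each other.

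MHC class I molecules show fragments of proteins made inside a cell to cytotoxic T cells, and class II molecules show fragments of ingested proteins to helper T cells. Class I genes are active in most cell types, whereas class II genes are chiefly active in cells of the immune system. Between them lie the class III genes, which encode complement factors, the cytokine TNF and many housekeeping proteins. Histone genes of the cluster further along supply the bulk of new histones when DNA is copied. Olfactory receptor genes, which are silent in most tissues outside the nose, lie with other genes between class I and the histone genes.

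Gene positions in UMD3.1.1 were not used here, so no window was assigned to a gene. The order of genes was taken from a RefSeq table of another assembly, ARS-UCD2.0. In that order the stretch from BOLA-DQA2, a class II gene, to H2AC1, a histone gene, listed 573 genes, of which 304 were protein-coding and 174 were tRNA genes. From BOLA-DQA2 to BTNL2, 7 of 11 genes had a BoLA symbol, the name of the bovine MHC. The class III stretch from NOTCH4 to DDX39B listed 68 genes, 58 of them protein-coding. The class I stretch followed, from DDX39B to GABBR1, with 86 genes. Between GABBR1 and ZNF311, 64 of 80 genes were olfactory receptors. From ZNF311 to H2BC17, the first histone gene, 14 of 104 genes were olfactory receptors, 53 were tRNA genes and 37 were protein-coding. From H2BC17 to H2AC1 the table listed 57 histone genes and 120 tRNA genes. Some of these families have near-identical members, and the authors kept reads with a unique position only. Sites in sequence shared between copies may therefore be missing from the lists. The part of this in the results was not tested.

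The first comparison asked whether the span carried more peaks than the rest of its chromosome. H3K9ac peaks in the span numbered 328 in control and 406 after butyrate, and H3K27ac peaks numbered 362 and 581. Pol II peaks numbered 153 and 182, and H3K9me3 peaks 78 and 206. In control cells peaks of all 4 lists were denser in the span than in the rest of chromosome 23. The ratio of peaks per Mb was 1.49 for H3K9ac (exact 95% interval, 1.32 to 1.68), 1.24 for H3K27ac (1.10 to 1.39), 1.20 for Pol II (1.00 to 1.42, a lower bound at equal density) and 1.52 for H3K9me3 (1.17 to 1.95). After butyrate the ratio was higher than in control for Pol II and lower for the histone marks. It was 1.83 for Pol II (1.54 to 2.16), 1.12 for H3K9ac (1.01 to 1.25), 0.958 for H3K27ac (0.876 to 1.05) and 0.858 for H3K9me3 (0.738 to 0.992). Among the 6 full blocks of 7 Mb into which the chromosome was divided, the span ranked first in butyrate Pol II (182 peaks, against 81 to 136 in the others) and in control H3K9me3 (78, against at most 74). In each of the other 6 lists another block held more peaks, up to 333 in control H3K9ac, 453 in control H3K27ac and 193 in control Pol II, and up to 527, 919 and 352 in butyrate H3K9ac, H3K27ac and H3K9me3. With peaks of at least 500 bp only, 36 butyrate H3K9ac peaks were left in the span and its log2 density ratio changed sign, from 0.17 to -0.062.

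**Figure D1:**
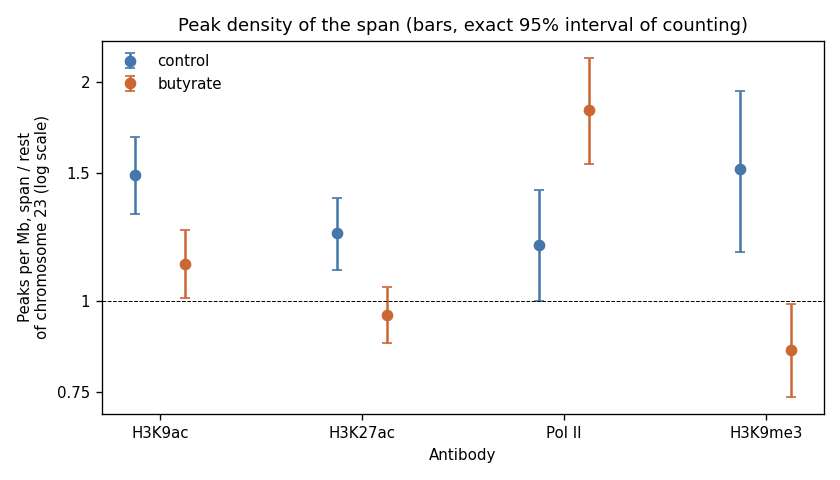
Peaks per Mb in the span divided by peaks per Mb in the rest of chromosome 23 (vertical axis, log scale) for each antibody in control and butyrate libraries; points are single libraries and bars are exact 95% intervals of counting. Pol II moved from 1.20 to 1.83, and H3K9me3 from 1.52 to 0.858, across the dashed line of equal density.

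Covered length gave a similar picture. In control, H3K9ac peaks covered 1.79% of the span and 1.20% of the rest of the chromosome, H3K27ac 2.19% and 1.70%, Pol II 0.538% and 0.441%, and H3K9me3 0.274% and 0.173%. After butyrate Pol II peaks covered 0.830% of the span against 0.385% of the rest. H3K9ac then covered 1.79% of the span and 1.64% of the rest, H3K27ac 3.39% and 3.69%, and H3K9me3 0.789% and 0.920%. Median length of Pol II peaks in the span was 221 bp in control and 260 bp after butyrate. Median H3K9ac length was 308 bp and 262 bp, H3K27ac 304.5 bp and 321 bp, and H3K9me3 214.5 bp and 240 bp. The shortest peaks of each list were 199 bp long. In the span 34.6% of control and 20.9% of butyrate Pol II peaks had that length, and 39.7% and 26.2% of H3K9me3 peaks. For H3K9ac these shares were 4.57% and 13.5%, and for H3K27ac 11.6% and 5.85%.

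The second comparison asked how the span changed with butyrate, beside the rest of the chromosome. The log2 ratio of peak number, butyrate over control, was 0.31 for H3K9ac in the span (95% interval, 0.09 to 0.52) and 0.71 in the rest (0.62 to 0.81). For H3K27ac it was 0.68 (0.49 to 0.88) in the span and 1.05 (0.97 to 1.13) in the rest, and for H3K9me3 1.40 (1.02 to 1.80) and 2.22 (2.05 to 2.40). On the other nuclear chromosomes the log2 ratio was 0.63 for H3K9ac, 0.99 for H3K27ac and 1.80 for H3K9me3. For H3K9me3 the rest of chromosome 23 thus stood above the other chromosomes. The difference of the log2 ratios, span minus rest, was -0.41 for H3K9ac (exact interval, -0.64 to -0.17), -0.37 for H3K27ac (-0.58 to -0.16) and -0.82 for H3K9me3 (-1.25 to -0.39). With peaks less than 1 kb apart joined, the difference for H3K27ac was -0.11 with an interval that included 0 (-0.39 to 0.18), while it was -0.31 for H3K9ac (-0.60 to -0.02) and -0.74 for H3K9me3 (-1.18 to -0.29). These are 3 of 4 such differences that were computed, and the intervals were not adjusted for that number.

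For Pol II the difference had the opposite sign. Its log2 ratio was 0.25 in the span, from 153 to 182 peaks, with an interval (-0.07 to 0.57) that included no change. In the rest of chromosome 23 the number went from 831 to 646, a log2 ratio of -0.36 (-0.51 to -0.21). On the other nuclear chromosomes it went from 55241 to 30397, a log2 ratio of -0.86. The difference, span minus rest of chromosome 23, was 0.61 (0.26 to 0.97). Pol II peaks after butyrate lay close together, and when peaks less than 1 kb apart were joined, the span held 147 in control and 136 after butyrate. The log2 ratio of the span was then -0.11, opposite in sign, and the difference from the rest was 0.37, with an interval (-0.01 to 0.75) that included 0. By covered bases the log2 ratio in the span was 0.62.

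H3K9ac in the span also depended on what was counted. Peaks of at least 500 bp went from 56 to 36 (log2 ratio -0.64, opposite in sign to that of all peaks), and peaks of at least 1 kb from 7 to 1. Covered bases stood at 125.1 kb in control and 125.5 kb after butyrate, a log2 ratio of 0.0046. More H3K9ac peaks of shorter length therefore covered the same total. H3K27ac peaks of at least 500 bp went from 89 to 137.

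**Figure D2:**
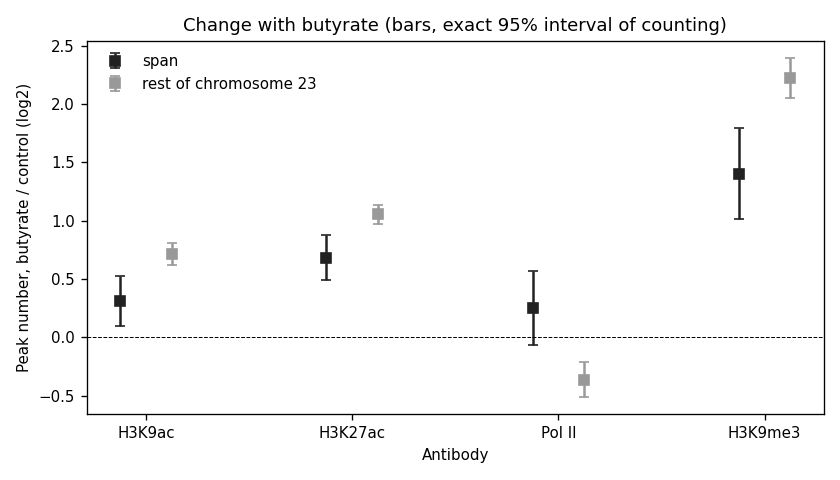
Log2 ratio of peak number, butyrate over control (vertical axis), for each antibody in the span (black) and in the rest of chromosome 23 (grey); bars are exact 95% intervals of counting and each ratio rests on 1 library per condition. Pol II stands at 0.25 in the span and at -0.36 in the rest, while the histone marks lie lower in the span than in the rest.

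Along the span, acetylated stretches alternated with stretches that held no acetyl peak. Control H3K9ac peaks in the 7 blocks of 1 Mb, in order of position, numbered 27, 3, 62, 65, 18, 49 and 104. Butyrate H3K9ac peaks numbered 43, 1, 72, 65, 33, 69 and 123. H3K27ac peaks numbered 40, 5, 83, 87, 15, 44 and 88 in control, and 69, 7, 117, 119, 25, 94 and 150 after butyrate. The second block, from 26000001 to 27000000, was the poorest in both acetyl marks under both conditions, and the last block, from 31000001 to 32000000, held the most peaks in all acetyl lists. By covered length control H3K27ac was higher in blocks 3 and 4, from 27000001 to 29000000 (39.8 kb and 40.4 kb, against 36.4 kb in the last block).

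Pol II was spread more unevenly over the blocks after butyrate than in control. Control Pol II peaks numbered 14, 14, 18, 19, 26, 24 and 38 over the blocks. After butyrate they numbered 18, 3, 32, 46, 14, 24 and 45. Blocks 2 and 5, the poorest in acetyl peaks, held fewer Pol II peaks after butyrate than in control, and blocks 3 and 4 held more. H3K9me3 peaks numbered 12, 13, 4, 8, 8, 16 and 17 in control and 21, 17, 9, 28, 39, 49 and 43 after butyrate. H3K9me3 was lowest in the third block under both conditions.

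**Figure D3:**
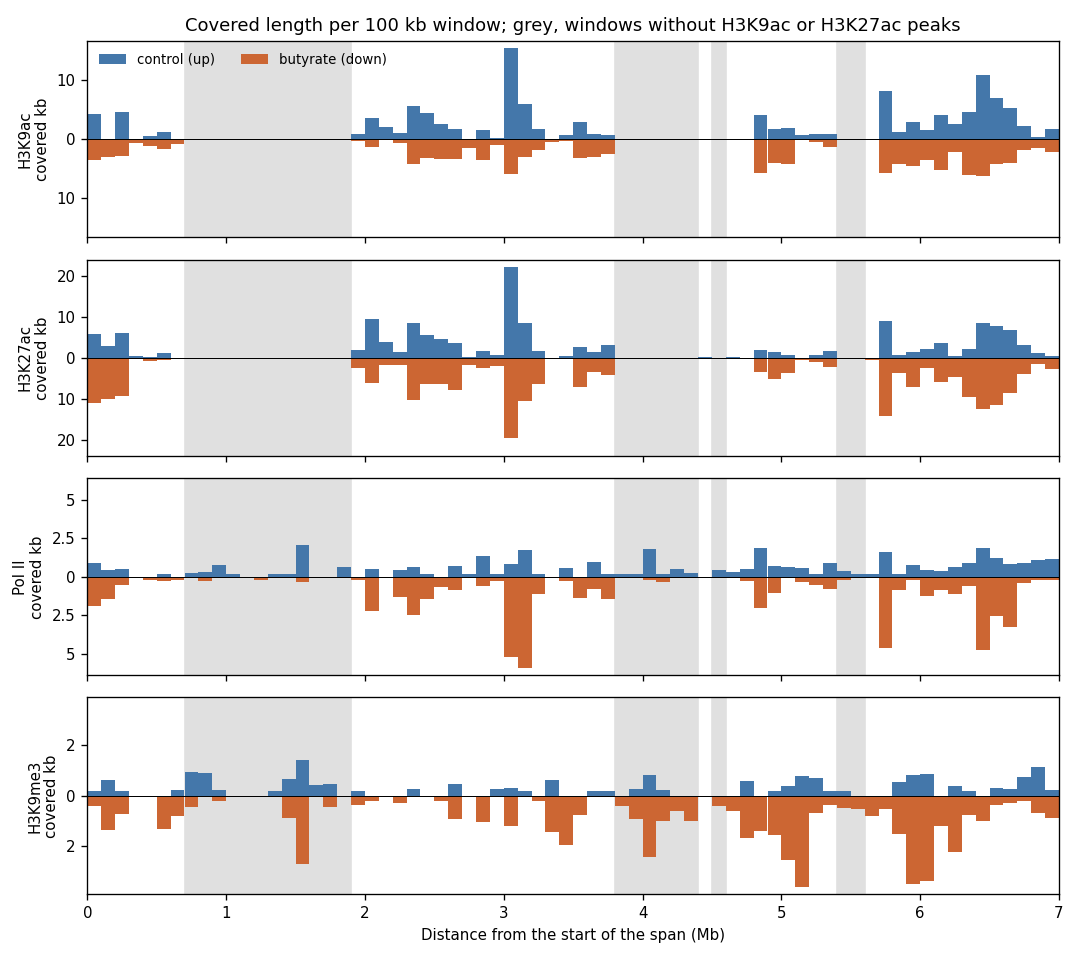
Covered length in kb (vertical axes) in each 100 kb window against distance from the start of the span in Mb, with control upwards and butyrate downwards, for the 4 antibodies; grey marks the 21 windows without any H3K9ac or H3K27ac peak. The run of 12 grey windows holds 19 control and 3 butyrate Pol II peaks, and the tallest Pol II bars after butyrate stand in the acetylated windows just beyond 3 Mb.

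Windows were then divided by acetylation, a division made after the values of the windows were seen. Of the 70 windows, 49 held an H3K9ac or H3K27ac peak in at least 1 condition, and 21 (30%) held none. In the rest of chromosome 23 such acetyl-free windows were 125 of 455. Few windows were acetylated in 1 condition alone, since 43 windows of the span had an acetyl peak in both conditions, 2 in control only and 4 after butyrate only. The windows acetylated in 1 condition held between 1 and 4 acetyl peaks each. The largest of them, from 25600001 to 25700000, gained 4 H3K9ac peaks.

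Pol II differed between these classes of windows. In the acetylated windows of the span Pol II peaks went from 116 to 176, a log2 ratio of 0.60 (0.26 to 0.95). In the acetyl-free windows they went from 37 to 6, a log2 ratio of -2.62 (-4.16 to -1.37). The difference between the classes was 3.23 (exact interval, 1.90 to 4.80). With peaks less than 1 kb apart joined, acetylated windows went from 113 to 130, a log2 ratio of 0.20 whose interval included 0 (-0.17 to 0.58), acetyl-free windows from 34 to 6, and the difference was 2.70 (1.36 to 4.29). In control 24.2% of the Pol II peaks of the span lay in acetyl-free windows, and after butyrate 3.30%.

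The same division was made in the rest of chromosome 23. There Pol II peaks went from 710 to 626 in acetylated windows, a log2 ratio of -0.18 (-0.34 to -0.02), and from 121 to 20 in acetyl-free ones, a log2 ratio of -2.60 (-3.36 to -1.91). The difference between the classes was 2.42 (1.70 to 3.19) there. Loss from acetyl-free windows was thus of a like size in both parts, with a difference of -0.03 whose interval (-1.74 to 1.48) is wide. In acetylated windows the log2 ratio of the span stood above that of the rest by 0.78 (0.40 to 1.17), and by 0.50 (0.09 to 0.92) with joined peaks.

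H3K9me3 peaks went from 52 to 158 in acetylated windows of the span (log2 ratio 1.60, 1.14 to 2.08) and from 26 to 48 in acetyl-free windows (0.88, 0.17 to 1.63). The difference between the classes, 0.72, had an interval that included 0 (-0.17 to 1.59). In the rest of the chromosome the ratio was 2.09 in acetylated and 2.73 in acetyl-free windows. In acetyl-free windows the difference of the log2 ratios, span minus rest, was -1.85 (-2.68 to -0.98). Control H3K9me3 was already denser there, with 1.24 peaks per acetyl-free window in the span and 0.464 in the rest.

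**Figure D4:**
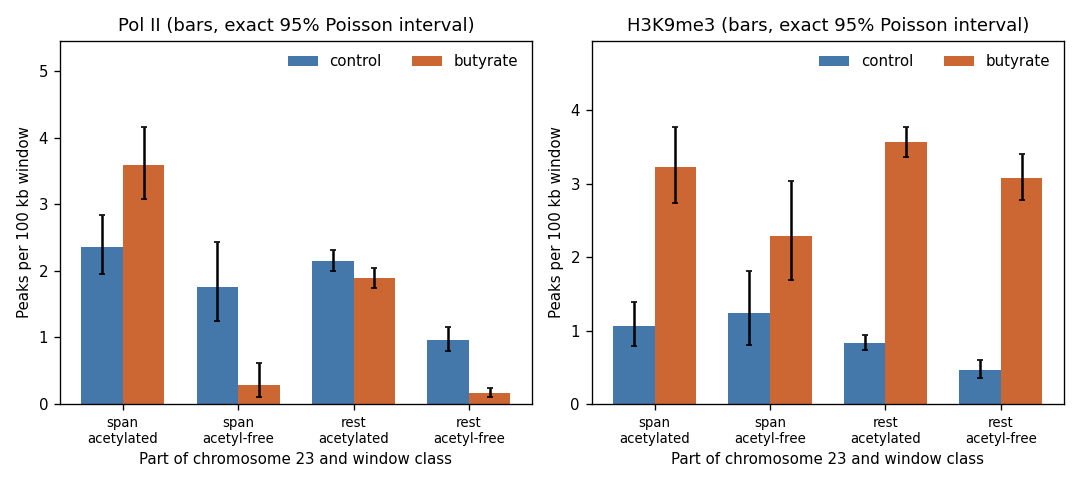
Peaks per 100 kb window (vertical axes) of Pol II and H3K9me3 in acetylated and acetyl-free windows of the span and of the rest of chromosome 23, for 1 control and 1 butyrate library each; bars are exact 95% Poisson intervals. Pol II in acetyl-free windows of the span went from 1.76 to 0.286 peaks per window and in acetylated windows from 2.37 to 3.59.

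Acetyl-free windows formed 2 runs of at least 3 windows. The longer ran from 25700001 to 26900000 over 12 windows, as long as the longest run in the rest of the chromosome, where 15 such runs were found. It held 19 Pol II peaks in control and 3 after butyrate, and 19 H3K9me3 peaks in each condition. The other ran from 28800001 to 29400000 over 6 windows, with 14 Pol II peaks in control and 2 after butyrate, and with 6 and 23 H3K9me3 peaks. H3K9me3 after butyrate therefore differed between the runs, with an equal number in the first and more peaks in the second. Of the 70 windows, 1 held no peak of any list (26100001 to 26200000, in the longer run).

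Within the first run, the window from 26500001 to 26600000 was the most covered of the span in control Pol II (8 peaks, 2.08 kb) and in control H3K9me3 (5 peaks, 1.43 kb). After butyrate it held 1 Pol II peak and 10 H3K9me3 peaks, and no acetyl peak in either condition. The largest fall in covered Pol II bases, from 2.08 kb to 0.317 kb, was in this window. In control, 7 of 153 Pol II peaks of the span (4.58%) overlapped an H3K9me3 peak, against 1.93% in the rest of chromosome 23 and 4.97% on all nuclear chromosomes. After butyrate 3 of 182 did (1.65%, against 3.56% and 6.6%). Read from the other side, 7 of 78 control H3K9me3 peaks (8.97%, against 4.79% and 10.9%) and 3 of 206 butyrate H3K9me3 peaks (1.46%, against 1.47% and 2.32%) met a Pol II peak. All 4 intervals of the log2 odds ratio, span against rest, included 0.

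The window from 28000001 to 28100000 was the most covered of the span by both acetyl marks in control and by H3K27ac after butyrate. It held 30 H3K9ac peaks covering 15.5 kb and 36 H3K27ac peaks covering 22.2 kb in control. After butyrate it held 18 H3K9ac peaks covering 5.89 kb, the largest fall in covered H3K9ac bases of the span, and 33 H3K27ac peaks covering 19.5 kb. Pol II there went from 4 to 10 peaks and from 0.822 kb to 5.19 kb, the largest rise in covered bases. The adjoining window, from 28100001 to 28200000, held the most Pol II after butyrate, with 17 peaks over 5.92 kb against 5 over 1.74 kb in control, the largest rise in peak number. H3K9ac peaks numbered 13 and 10 there, while H3K27ac covered 8.59 kb and 10.5 kb. Without these 2 windows, the most covered by butyrate Pol II, the difference of the Pol II log2 ratios between the span and the rest was 0.47 (0.10 to 0.84).

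The other windows with extreme values lay apart from these. H3K9ac gained most covered bases from 30800001 to 30900000, from 4 to 16 peaks (1.15 kb to 4.30 kb), and H3K27ac there went from 3 to 13 peaks. H3K27ac gained most from 31300001 to 31400000, from 7 to 22 peaks (2.15 kb to 9.46 kb), while Pol II stood at 3 and 2 peaks. H3K9ac after butyrate was highest from 31400001 to 31500000, with 22 peaks over 6.23 kb, below the 28 peaks over 10.9 kb of control. H3K9me3 gained most from 30100001 to 30200000, from 4 to 12 peaks (0.800 kb to 3.61 kb), which was also its highest value after butyrate. H3K27ac lost most from 27000001 to 27100000, from 9.45 kb to 6.21 kb, where Pol II went from 0.492 kb to 2.20 kb. H3K9me3 lost most from 25800001 to 25900000, from 3 peaks to 0.

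A window was counted as risen when its covered bases, with 500 bp added, were at least 2 times those of control, and as fallen at 0.5 times or less. For Pol II 13 of 63 windows with a peak had risen (20.6%), against 5.71% of windows on all nuclear chromosomes and 10.3% in the rest of chromosome 23, and 7 had fallen (11.1%, against 23% and 15.3%). For H3K27ac 11 of 47 windows had risen (23.4%, against 40% and 44.1%) and 0 had fallen (against 2.19% and 1.28%). For H3K9ac 13 of 46 had risen (28.3%, against 26.3% and 27.3%), a share near the background, and 3 had fallen (6.52%, against 4.87% and 3.22%). For H3K9me3 22 of 60 had risen (36.7%, against 43.1% and 51.1%) and 1 had fallen (against 0.776% and 0.247%). The median log2 ratio over the windows of the span was -0.01 for Pol II, against -0.51 over all nuclear chromosomes and -0.40 in the rest of chromosome 23. Medians for the histone marks, in the same order, were 0.35, 0.52 and 0.56 (H3K9ac), 0.55, 0.75 and 0.82 (H3K27ac) and 0.82, 0.88 and 1.02 (H3K9me3). With 2000 bp added in place of 500 bp, risen windows numbered 2 for Pol II, 2 for H3K9ac, 1 for H3K9me3 and 8 for H3K27ac, and fallen Pol II windows 0. Shares over all nuclear chromosomes were not computed with 2000 bp.

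The next question was how many individual sites persisted. Retained peaks were control peaks that shared at least 1 bp with a peak of that antibody after butyrate. Of the control H3K9ac peaks in the span, 130 of 328 were retained (39.6%, 95% Wilson interval 34.5 to 45.0), against 47.3% (44.7 to 49.9) in the rest of chromosome 23 and 48.6% on all nuclear chromosomes. For H3K27ac 232 of 362 were retained (64.1%, 59.0 to 68.9), close to the 67.1% of the rest and the 65.9% of all chromosomes. For Pol II 14 of 153 were retained (9.15%, 5.53 to 14.8), against 4.93% and 4.59%, and for H3K9me3 11 of 78 (14.1%, 8.06 to 23.5), against 8.98% and 16.1%. The log2 odds ratio of retention, span against rest, was -0.45 for H3K9ac (-0.81 to -0.09), and for the others its interval included 0.

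Gained peaks were those of the butyrate list that met no control peak. They made up 265 of 406 H3K9ac peaks of the span (65.3%, against 67.2% on all nuclear chromosomes) and 339 of 581 H3K27ac peaks (58.3%, against 67.7%). In the rest of chromosome 23 the gained share was 69.3% for H3K9ac and 67.6% for H3K27ac. The span had fewer new H3K27ac sites in proportion, with a log2 odds ratio of -0.58 (-0.84 to -0.31). Gained shares of Pol II (168 of 182, 92.3%) and H3K9me3 (197 of 206, 95.6%) were near those of all chromosomes (91.7% and 95.4%).

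A minority of new H3K27ac sites lay where control cells carried H3K9ac, and this share was larger in the span than in the rest. Control H3K9ac itself covered 1.79% of the span and 1.20% of the rest. The part of that density in the overlap was not tested. Of the 339 gained H3K27ac peaks, 82 (24.2%, 19.9 to 29.0) overlapped a control H3K9ac peak, against 10.1% (8.97 to 11.3) in the rest of the chromosome and 11.4% on all nuclear chromosomes. The log2 odds ratio was 1.51 (1.09 to 1.92), and 1.23 (0.77 to 1.67) with an overlap of at least 50%. With all lists cut to peaks of at least 500 bp the shares were near each other. They were 8 of 89 (8.99%) in the span and 8.50% in the rest, with a log2 odds ratio of 0.087 (-1.24 to 1.22). Of 265 gained H3K9ac peaks, 90 (34.0%, 28.5 to 39.9) met a butyrate H3K27ac peak, against 46.9% in the rest and 49.2% on all chromosomes, a log2 odds ratio of -0.78 (-1.19 to -0.38). Control H3K27ac met 31 of them (11.7%), near the 13.4% of the rest and the 14.8% of all chromosomes. Of the gained H3K27ac peaks 102 (30.1%) met a butyrate H3K9ac peak, near the 25.6% of the rest and the 27% of all chromosomes.

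Co-occupancy with H3K27ac was compared within each condition. Of the H3K9ac peaks of the span, 195 of 328 (59.5%, 54.1 to 64.6) met an H3K27ac peak in control and 215 of 406 (53.0%, 48.1 to 57.8) after butyrate, against 60.3% and 61.7% on all nuclear chromosomes. In the rest of chromosome 23 these H3K9ac shares were 62.9% and 59.6%. Seen from H3K27ac, 188 of 362 control peaks (51.9%, 46.8 to 57.0) and 203 of 581 butyrate peaks (34.9%, 31.2 to 38.9) met H3K9ac, against 45.5% and 34.9%. The rest had 44.7% and 32.7%. The log2 odds ratio, span against rest, was -0.39 (-0.70 to -0.08) for butyrate H3K9ac and 0.42 (0.09 to 0.75) for control H3K27ac. For control H3K9ac and butyrate H3K27ac its interval included 0. Of the Pol II peaks, 22 of 153 (14.4%, 9.69 to 20.8) met H3K27ac in control and 102 of 182 (56.0%, 48.8 to 63.1) after butyrate, against 9.44% and 59.2%. In the rest of the chromosome the Pol II shares were 9.63% and 62.8%. With an overlap of at least 50% the butyrate share in the span was 47.3%. It was 33.3% when both lists were cut to peaks of at least 500 bp. Shares outside the span were not computed at these settings. Against H3K27ac peaks of any length, 10 of the 15 Pol II peaks of at least 500 bp met one (66.7%). Control H3K27ac already met 83 of the 182 butyrate Pol II peaks (45.6%), against 40.1% both in the rest of the chromosome and on all nuclear chromosomes. Of the control Pol II peaks 38 of 153 (24.8%) met butyrate H3K27ac, against 18.9% on all nuclear chromosomes. H3K9me3 peaks met H3K27ac in 3 of 78 cases in control (3.85%, 1.32 to 10.7) and in 7 of 206 after butyrate (3.40%, 1.66 to 6.85), against 9.66% and 5.82%.

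**Figure D5:**
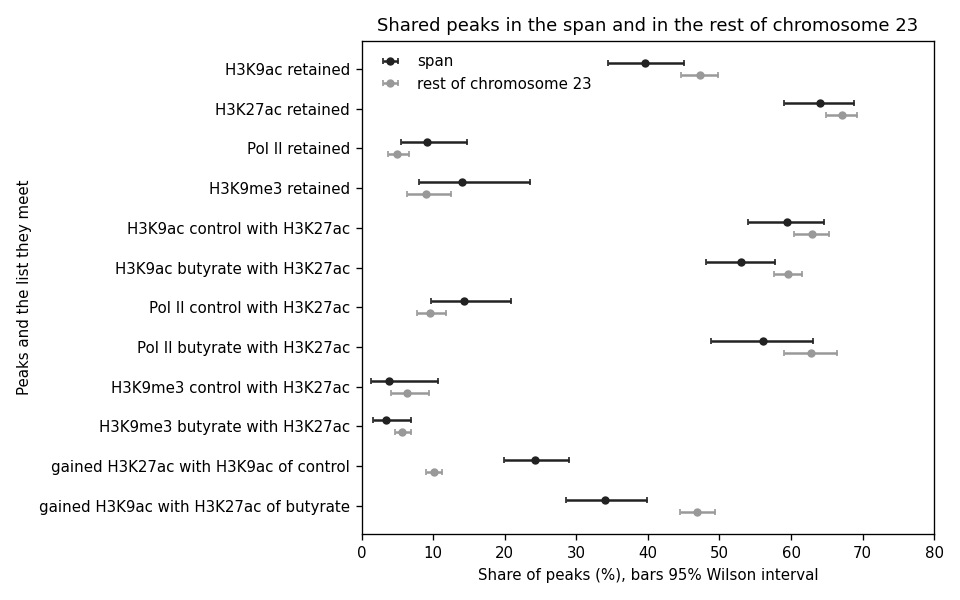
Share of peaks in percent (horizontal axis) that overlapped the list named on the vertical axis, in the span (black) and in the rest of chromosome 23 (grey), with 95% Wilson intervals. Retained peaks are control peaks that persisted in the butyrate list. The widest gap between the parts is in gained H3K27ac peaks that met control H3K9ac, 24.2% against 10.1%. With lists cut to peaks of at least 500 bp these shares were 8.99% and 8.50%.

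Single peaks were named by length. The longest H3K27ac peak of control lay from 28073008 to 28075221 (2214 bp) and was met by peaks of 3 other lists, all acetyl lists. The longest control H3K9ac peak, from 25015268 to 25016719 (1452 bp), and the longest butyrate H3K27ac peak, from 25015203 to 25016780 (1578 bp), shared 1 site near the start of the span, where both acetyl marks and Pol II had peaks in both conditions. The longest butyrate H3K9ac peak lay from 27896659 to 27897665 (1007 bp) and met control H3K9ac and control Pol II. The longest Pol II peak was 669 bp in control (28187141 to 28187809) and 1927 bp after butyrate (28088422 to 28090348). The longest H3K9me3 peak, 533 bp in control (25727141 to 25727673) and 731 bp after butyrate (30995884 to 30996614), met no peak of another list in either condition.

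Long Pol II peaks were then set beside the other lists. The span held 1 Pol II peak of at least 500 bp in control and 15 after butyrate. The control peak met butyrate H3K27ac alone. Of the 15, 14 overlapped a control H3K27ac peak (93.3%, against 78.3% of 23 such peaks in the rest of chromosome 23 and 81% on all nuclear chromosomes) and 11 a control H3K9ac peak (73.3%, against 82.6% and 78.2%). Butyrate H3K27ac met 10 (66.7%, against 82.6% and 85.5%), butyrate H3K9ac 6 (40%, against 69.6% and 68%) and control Pol II 5 (33.3%, against 8.70% and 18%). The interval of the log2 odds ratio, span against rest, included 0 for each of these lists. No peak of either H3K9me3 list met them. They fell in 8 windows, and 5 of them lay between 28000001 and 28200000.

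Overlapping peaks of all lists joined into 1245 regions in the span, of which 792 (63.6%) were held by 1 list, against 68.2% in the rest of chromosome 23. No region of the span was held by 7 or 8 lists, and 7 regions (0.562%, against 0.458% in the rest) were held by 6. Of these 7, named after their values were seen, 6 lacked only the H3K9me3 lists and so carried both acetyl marks and Pol II in both conditions. They lay from 25014778 to 25016780, 27054300 to 27055688, 27325280 to 27326491, 28077616 to 28079164, 28083378 to 28084329 and 31534771 to 31535861. The other, from 31531660 to 31533235, lacked butyrate Pol II and butyrate H3K9me3, and so had a control H3K9me3 peak beside the acetyl marks.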

How the data were processed

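Per the labels and the methods of the study, the authors trimmed reads (Trim Galore 0.4.1 in the submitters' processing notes), aligned them to UMD3.1.1 with BWA, kept uniquely aligned reads with few mismatches and called peaks per library with MACS2 at default settings against the MDBK input. The deposited lists hold peak positions only (chromosome and borders in base pairs), without heights. Read depth and the input library were not used here, and deeper libraries can give more peaks. Starts were taken as 0-based and are printed 1-based; if they were 1-based already, printed starts are 1 bp too high. The chromosome was taken to end at the last peak, 52.5 Mb, which left 45.5 Mb outside the span.

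Peaks were counted by midpoint and covered bases by clipping at window borders. Density ratios and log2 ratios had exact binomial 95% intervals, differences of log2 ratios the exact conditional interval of the odds ratio, and shares Wilson intervals. No p-value was computed. Windows named are, per library, the most covered and, per antibody, those of largest rise and fall. The 8 longest peaks, runs of at least 3 acetyl-free windows and regions of at least 7 lists (0 were found) were also named. Alternatives covered peak length, joining, comparator, overlap, window size and the bases added per window. The span, these rules and the comparisons were chosen with earlier results of these data known. Functions were tested on simulated data. Python 3.11.15, numpy 2.4.6, scipy 1.17.1, pandas 2.3.3 and matplotlib 3.10.9 were used.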

Additional observations from a re-analysis of the deposited data

Results flagged for a closer look

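The change of Pol II with butyrate differed between the span and the rest of chromosome 23. The log2 ratio was 0.25 in the span, with an interval that included 0, and -0.36 in the rest, a difference of 0.61 with an exact interval (0.26 to 0.97) that excluded 0. With peaks less than 1 kb apart joined, the difference was 0.37 (-0.01 to 0.75). Without the 2 windows richest in butyrate Pol II peaks it was 0.47, and without peaks of the shortest length 0.62. Each value rests on 1 library per condition.

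Within the span the change of Pol II differed between acetylated windows (log2 ratio 0.60) and acetyl-free windows (-2.62), a difference of 3.23 (1.90 to 4.80). The rest of chromosome 23 also showed such a difference, 2.42 (1.70 to 3.19), so it was not particular to the span. With joined peaks the ratios in the span were 0.20, with an interval that included 0, and -2.50. Window size of 50 kb gave 0.64 and -2.55, and classes set by control acetylation alone gave 0.62 and -2.32. Leaving out Pol II peaks of the shortest length, 199 bp, gave 0.86 and -2.52. The alternatives of this and the preceding result were chosen after seeing the data.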

How the results depend on the processing

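No paired analysis was possible because every group held 1 library. Of 116 alternative values, 66 stayed inside the 95% interval of the value reported (counts of windows, within 1.5 times), 48 moved and 2 with an interval clear of 0 changed sign. Causes were not tested. Counting every peak that touched the span moved no value.

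With a 500 bp minimum the log2 change of H3K9ac in the span (-0.64) and the log2 density ratio of butyrate H3K9ac (-0.062) changed sign. That minimum left 1 control peak each of Pol II and H3K9me3, 15 of butyrate Pol II and 6 of butyrate H3K9me3. Log2 density ratios were then 0.35 for control H3K9ac, 0.56 for control H3K27ac, -0.62 for control Pol II, 2.70 for control H3K9me3, 2.08 for Pol II after butyrate and -0.50 for H3K9me3 after butyrate. The log2 change was 3.91 for Pol II and 2.58 for H3K9me3. For shares of peaks the minimum was applied to both lists compared, so a partner shorter than 500 bp did not count. At this minimum the retained and gained shares and the overlap with H3K27ac were computed for the span alone, with no background. Of H3K9ac peaks 21.4% were retained, of H3K27ac peaks 52.8%, of Pol II 0% and of H3K9me3 0%. The last 2 values rest on 1 control peak each and so cannot describe retention. Gained peaks made up 65.0% of H3K27ac, 100% of Pol II and 100% of H3K9me3. Against control Pol II peaks of any length, 5 of the 15 butyrate Pol II peaks did meet one. Overlap with H3K27ac was 0% for control Pol II, 0% for H3K9me3 in control and 0% after butyrate, 58.3% for butyrate H3K9ac and 33.3% for butyrate Pol II.

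With other chromosomes as comparator, log2 density ratios were 0.76 (control H3K9ac), 0.55 (control H3K27ac), 0.20 (control H3K9me3), 0.43 (butyrate H3K9ac), 0.24 (butyrate H3K27ac) and 1.16 (butyrate Pol II). Control Pol II then stood at 0.045, near equal density, and butyrate H3K9me3 at -0.19. Joining peaks less than 1 kb apart gave a log2 density ratio of 0.069 for butyrate H3K27ac and log2 changes of 0.59 for H3K9ac and -0.11 for Pol II, and covered bases gave 0.0046 and 0.62 for these. Joining also took the difference between span and rest to -0.11 for H3K27ac and the change of Pol II in acetylated windows to 0.20, and the 500 bp minimum took the log2 odds ratio of gained H3K27ac on control H3K9ac to 0.087; these 3 were added after seeing the data.

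With an overlap of at least 50%, retained shares were 29.6% (H3K9ac) and 56.6% (H3K27ac), gained shares 71.7% and 66.3%, and overlap with H3K27ac 52.7% (control H3K9ac), 45.6% (butyrate H3K9ac) and 47.3% (butyrate Pol II). These shares were computed for the span alone, with no background at that overlap. With 2000 bp added, risen windows numbered 2 for H3K9ac, 2 for Pol II and 1 for H3K9me3, and fallen ones 0 for Pol II and 0 for H3K9me3. With 50 kb windows, 25 of 82 H3K27ac windows had risen and 8 of 82 H3K9ac windows had fallen. Shares over all nuclear chromosomes were not computed for these window settings.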

Other observations

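After butyrate Pol II peaks of the span lay in tighter groups. Joining peaks less than 1 kb apart left 1.34 Pol II peaks per joined region, against 1.04 in control, and the values in the rest of chromosome 23 were 1.14 and 1.05. H3K9ac went the other way in both parts, from 1.67 to 1.37 peaks per joined region in the span and from 1.60 to 1.40 in the rest. H3K27ac stood at 1.89 and 1.87 in the span and went from 1.72 to 2.05 in the rest.

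Peaks were spread unevenly over the windows. The 10 most covered windows held 60.2% of the covered bases of butyrate Pol II in the span, against 42.2% in control Pol II. For H3K9ac this share was 57.6% in control and 41.8% after butyrate, and for H3K27ac 60.4% and 49.9%. These values describe single libraries and were not tested.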
